A study of Mus musculus with 23 samples.

Results

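The Hox genes of single mouse cells are described here, gene by gene and by chromosomal cluster, in fibroblasts and astrocytes that had or had not received the RNA of cardiomyocytes. The members were all probe sets (groups of short array probes aimed at one transcript) whose single annotated gene symbol is Hox, a cluster letter from a to d and a number; the rule used no measured value. It found 33 of the 18193 genes tested, read by 48 of the 34945 probe sets with 1 gene symbol: 16 sets for 9 HoxA genes, 11 for 9 HoxB genes, 11 for 7 HoxC genes and 10 for 8 HoxD genes. By position number, 16 sets fell at positions 1 to 4, 15 at 5 to 8 and 17 at 9 to 13. All 48 were measured on every array and none was lost to a filter. Sets shared by neighbouring Hox genes and sets for antisense transcripts have another symbol and were not members.

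The study asked whether a cell takes on the character of another cell type when it is given that cell's messenger RNA, a procedure its authors call transcriptome-induced phenotype remodeling (TIPeR). Poly-A RNA was delivered with a lipid reagent to mouse cells in serum-containing culture medium, and afterwards a single cell was drawn into a glass pipette, its RNA amplified as antisense RNA and hybridised to 1 Affymetrix array. The 23 cells were 5 fibroblasts given cardiomyocyte RNA (fibroTIPeR), 3 fibroblasts given fibroblast RNA (fibroControl), 3 fibroblasts with no transfection (fibroblast), 4 cardiomyocytes with no transfection (cardiomyocyte), 6 astrocytes given cardiomyocyte RNA (astroTIPeR) and 2 mock-transfected astrocytes (astroControl). No source used here gives the strain, age, body site of origin or time after transfection. The labels tie no cell to a culture or an animal, so p-values measure the spread between cells alone.

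Hox genes encode homeodomain transcription factors and lie in the clusters HoxA to HoxD in the order in which they act along the head-to-tail axis, low position numbers towards the head and high numbers towards the tail, the distal limbs and the genital tubercle. Genes with the same number in different clusters are paralogs. Fibroblasts keep in culture a Hox pattern that records the body site they came from, forebrain and midbrain cells largely lack Hox expression, and progenitors of the heart tube express genes from the head end of the clusters. Hox genes are therefore widely used as a readout of the body position a cell came from.

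The promoters of 3 members that head the comparisons below are shown as the 250 bases before the annotated start, on the gene's strand and 5′ to 3′, because these genes are among those with the smallest p. Capitals mark the letters searched on either strand. The core promoter motifs were the TATA box, searched as TATAAA, the GC box, searched as GGGCGG, and the CCAAT box. The paired Hox and Pbx site was searched as TGATNNAT. The recognition element of nuclear receptors was searched as AGGTCA. The sequences are RefSeq's on build GRCm38.p6. Hoxd13, the last gene of HoxD, which patterns digits and genitalia, starts after chr2:74667975-74668224 on the plus strand; Hoxd10, which patterns the hindlimb and lumbar cord, after chr2:74691641-74691890 on the plus strand; and Hoxa2, the selector gene of the second pharyngeal arch and of hindbrain segments, after chr6:52164832-52165081 on the minus strand.
Hoxd13: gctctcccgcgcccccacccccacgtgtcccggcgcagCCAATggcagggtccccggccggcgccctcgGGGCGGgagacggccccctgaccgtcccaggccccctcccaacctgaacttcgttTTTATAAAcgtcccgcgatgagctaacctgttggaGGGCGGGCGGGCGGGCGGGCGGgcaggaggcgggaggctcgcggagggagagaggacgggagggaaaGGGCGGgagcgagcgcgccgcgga
Hoxd10: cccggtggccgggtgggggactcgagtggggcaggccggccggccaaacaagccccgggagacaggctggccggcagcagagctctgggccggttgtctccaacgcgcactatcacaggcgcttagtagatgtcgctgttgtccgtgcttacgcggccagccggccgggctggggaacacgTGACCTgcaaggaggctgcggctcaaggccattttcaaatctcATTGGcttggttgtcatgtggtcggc
Hoxa2: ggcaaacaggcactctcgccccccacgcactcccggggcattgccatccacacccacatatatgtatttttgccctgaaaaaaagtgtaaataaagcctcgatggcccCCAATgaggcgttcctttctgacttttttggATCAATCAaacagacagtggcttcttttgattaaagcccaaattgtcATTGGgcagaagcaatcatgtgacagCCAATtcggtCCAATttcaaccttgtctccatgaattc

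The Hoxd13 stretch was 74.4% G and C with 31 CpG dinucleotides and held 7 GC boxes, 5 of them overlapping in 1 run, and a TATAAA read on both strands in 8 shared letters. The Hoxd10 stretch was 65.6% G and C, with 1 CCAAT and 1 AGGTCA match. The Hoxa2 stretch was 46.4% G and C with 6 CpG dinucleotides, and held 4 CCAAT matches and 1 paired Hox and Pbx site whose first base lies 111 bases before the start. The stretch of Hoxa3, not printed, was 64.8% G and C with 18 CpG dinucleotides and held none of these motifs; its base content was nearer to that of Hoxd10 than to that of Hoxa2. A promoter was on hand for 19 of the 33 member genes. Over the 21 Hox promoters of the RefSeq table the median G and C content was 59.2% and the median number of CpG dinucleotides 13, against 52.4% and 6 over all 32851 promoters. The CCAAT letters stood in 52.4% of Hox and 33.8% of all promoters, the paired Hox and Pbx site in 14.3% and 7.68%, AGGTCA in 23.8% and 14.0%, GGGCGG in 38.1% and 32.7%, and TATAAA in 9.52% and 12.4%. A match is a description of letters, not of a bound site.

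The levels below are log2 values quantile normalised over all 23 arrays, on which the median probe set stood at 5.10 and the 90th percentile at 9.48. Probes differ in brightness, so a level was compared between cells and not between probe sets. Where sets are set side by side, it is by their rank within the array. A rank removes the scaling between arrays but not the brightness of the probes. The Hoxa5 sets 1443803_x_at and 1448926_at, for example, had mean percentiles of 97.0 and 48.7. A difference in rank between sets or clusters is therefore not a difference in expression. A set called high stood above the 75th percentile of the tested sets of that cell's array. Before normalisation the fibroblast and cardiomyocyte arrays had medians of 5.05 to 5.58 and the astrocyte arrays of 4.28 to 4.56, so that cell type and array set cannot be told apart wherever the 2 sets are compared. Cardiac markers separated the cardiomyocytes, with 6 to 7 of 8 markers above the 75th percentile against 0 to 2 in every other cell, and Tnni3, cardiac troponin I, at 11.96 ± 0.98 (SD, n = 4) against group means of 5.05 or less. Of 8 fibroblast markers, 5 to 8 were above the 75th percentile in each cell of the 3 fibroblast groups, against 4 to 7 in astroTIPeR, 3 to 6 in astroControl and 1 to 5 in cardiomyocyte, so the list did not separate fibroblasts from the astrocyte groups. Of 8 astrocyte markers, 4 to 5 were above it in each astroTIPeR cell and 3 to 4 in each astroControl cell, against 4 to 5 in cardiomyocyte, 3 to 5 in fibroblast, 2 to 5 in fibroTIPeR and 2 to 3 in fibroControl. Apoe, at 6.19 ± 1.58 (SD, n = 6), and S100b had their highest group mean in astroTIPeR. Slc1a2, Slc1a3, Gja1 and Gfap had theirs in cardiomyocyte, Aqp4 in fibroblast and Aldh1l1 in fibroControl. Of 6 macrophage and microglia markers, 1 to 3 were above the 75th percentile in each astroTIPeR cell. In fibroControl it was 0 to 1 per cell and in each of the other groups 1 to 2. Lyz2, Cd68 and Aif1 had their highest group mean in astroTIPeR, Csf1r and C1qa in fibroblast and Ptprc in cardiomyocyte. Lyz2 among them averaged 9.89 ± 2.42 (SD, n = 6) in astroTIPeR and 7.99 ± 4.67 (SD, n = 2) in astroControl, against 5.93 ± 0.94 (SD, n = 4) in cardiomyocyte and lower means in the fibroblast groups. Gfap, the intermediate filament that defines astrocytes, averaged 4.69 ± 0.96 (SD, n = 6) in astroTIPeR and 5.32 ± 0.58 (SD, n = 2) in astroControl and was above the 75th percentile in none of these 8 cells, while the glutamate transporter Slc1a3 was above it in all 23 cells of the study. The 18S ribosomal RNA control probes, a sign of how much ribosomal RNA was carried into the labelled sample, read 11.62 ± 0.43 (SD, n = 3) in fibroControl and 7.45 ± 0.53 (SD, n = 3) in fibroblast, and 12.38, 11.03, 13.48, 7.80 and 7.88 in fibroTIPeR cells 1 to 5.

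Some Hox probe sets were bright in every cell whatever its type. High on all 23 arrays were 7 of the 48 sets, or 14.6%, against 7.14% of all tested sets. They were 2 sets for Hoxc6, which patterns the thorax, and 1 each for Hoxa5, a regulator of lung and cervical skeleton, Hoxa3, needed for thymus and parathyroid, Hoxa9, a gene of posterior trunk and blood progenitors, Hoxb2, a hindbrain gene, and Hoxa7, a thoracic gene. At the other end, 9 sets (18.8%, against 34.0% of all) were high in no cell, namely Hoxa13, Hoxb1, Hoxd1, Hoxd11 and Hoxd12 and 1 set each for Hoxa3, Hoxa4, Hoxa10 and Hoxd8. The other 32 sets were high in some cells. Of 5 neuron markers, 3 were also high in every cell, cardiomyocytes and fibroblasts included, namely Rbfox3, Syt1 and Map2. A set that is high in every cell is thus not a sign by itself that each cell type expresses the gene. Whether such sets read the transcript of their gene was not tested.

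The sets of highest mean for Hoxc6 and Hoxa5 varied little between cells. Hoxc6 1427361_at averaged 12.19 ± 0.23 (SD, n = 23 cells), between 11.73 in fibroblast 1 and 12.54 in fibroControl 2. Hoxa5 1443803_x_at averaged 11.86 ± 0.21 (SD, n = 23), between 11.39 in fibroTIPeR 1 and 12.26 in cardiomyocyte 4. Hoxa3 1427433_s_at ran from 10.57 to 12.24 and Hoxa9 1421579_at from 10.39 to 12.09. For each of these 4 sets all cells lay within 1.70 of each other, although for Hoxa5 1443803_x_at and Hoxa9 1421579_at every cardiomyocyte was above every fibroblast. Hoxb2 1449397_at ran from 9.41 to 11.59 and Hoxa7 1449499_at from 7.17 to 10.94. Completing the 8 highest genes, Hoxb3 1427605_at, another hindbrain and neck gene, ran from 4.58 in fibroTIPeR 1 to 12.78 in fibroblast 1, and Hoxa11 1420414_at, a gene of forearm and uterus, from 4.85 in fibroTIPeR 1 to 11.03 in cardiomyocyte 4; their SD of 1.82 each was above the median SD of the 48 Hox sets, 1.13, and of all tested sets, 1.03. Small spread at this brightness was not particular to Hox genes. Among all tested sets with a mean that rounds to 12.2, the most common SDs were 0.2 (34 sets) and 0.3 (29 sets), also rounded. Over all 2495 sets that were high on every array, which include sets of lower mean, the SD had a median of 0.49. Its 5th to 95th percentile range was 0.18 to 1.30. Of these sets 15.2% had a smaller SD than Hoxc6 1427361_at, while 41.9% had a smaller one than Hoxa9 1421579_at, 46.4% than Hoxa3 1427433_s_at and 59.6% than Hoxb2 1449397_at.

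**Figure D1:**
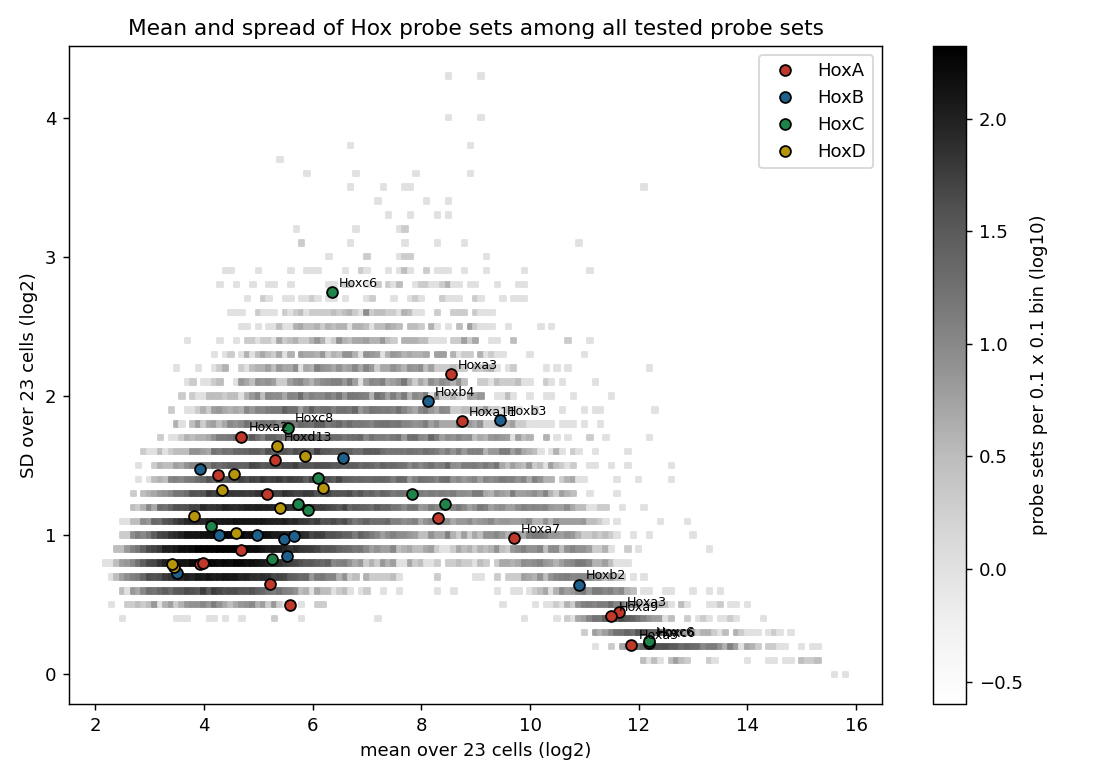
Mean (x axis, log2) and SD (y axis, log2) over the 23 cells for the 48 Hox probe sets, coloured by cluster, over a grey map of the number of all tested sets in each bin (log10 scale). The bright sets of Hoxc6 and Hoxa5 lie at means from 11.86 to 12.19 with SDs from 0.21 to 0.24, and 1 other Hoxc6 set lies at the top with an SD of 2.74.

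Different probe sets of a bright gene did not follow each other. The second Hoxa5 set, 1448926_at, averaged 5.31, and its correlation with the bright set over the 23 cells was -0.37. The second Hoxa9 set, 1455626_at, averaged 4.26, with a correlation of -0.06, and the 3 other Hoxa3 sets averaged 5.16, 8.54 and 5.59, with correlations to the bright one of 0.08, -0.21 and 0.25. Over the 20 pairs of sets for the 11 genes that have several, the correlation had a median of -0.04 and ran from -0.66, for Hoxc5 1450832_at and 1456301_at, to 0.83, for Hoxc6 1427361_at and 1427362_x_at. That last pair was the 1 pair above 0.5. These correlations are over the same 23 arrays and carry no test. They bear on every result below: a level of a Hox gene is the level of 1 probe set, and the set is given with each difference of a gene that has several.

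**Figure D2:**
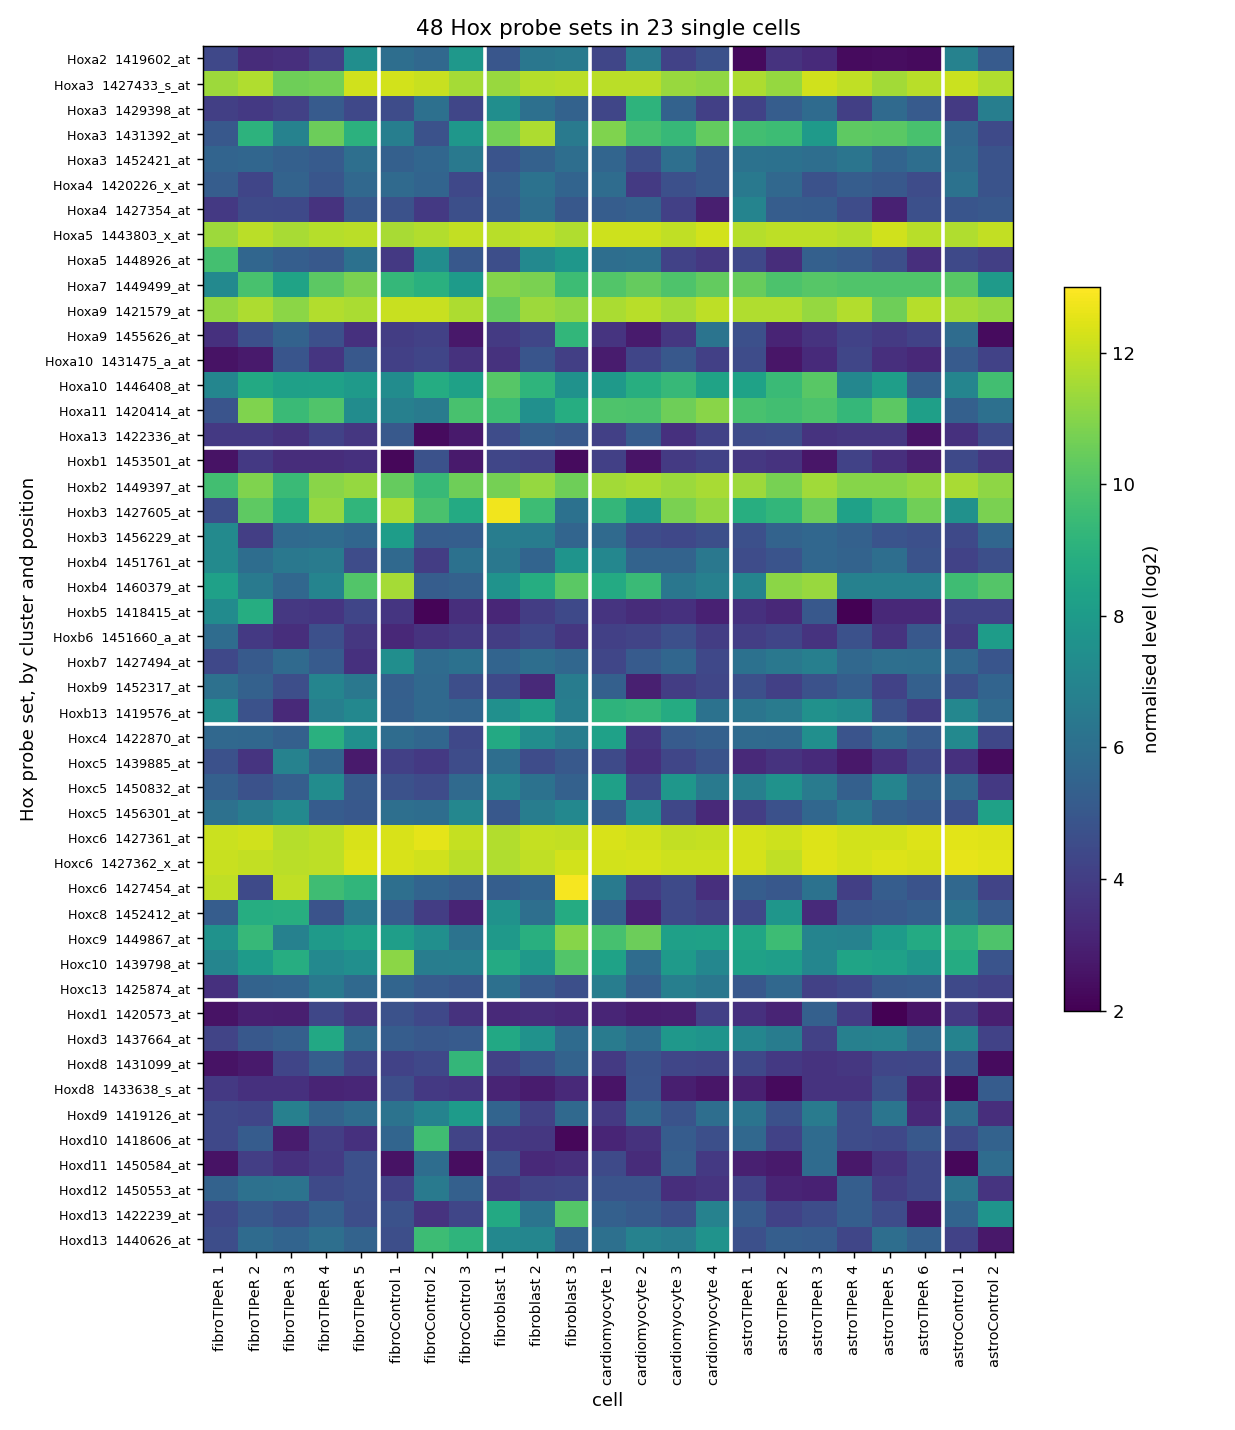
Normalised log2 level (colour) of the 48 Hox probe sets (rows, by cluster and position) in each of the 23 cells (columns, by group; white lines separate clusters and groups). The rows of Hoxa3 1427433_s_at, Hoxa5 1443803_x_at, Hoxa9 1421579_at and the 2 bright Hoxc6 sets are high across all cells, while the other rows vary more between cells, some with 1 bright cell, such as that of Hoxd10.

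Untreated fibroblasts had the most Hox sets at a high level. In fibroblast cells 21.0 ± 2.0 (SD, n = 3) of the 48 sets were above the 75th percentile, against 17.6 ± 1.8 (SD, n = 5) in fibroTIPeR, 17.5 ± 1.0 (SD, n = 4) in cardiomyocyte, 15.8 ± 1.5 (SD, n = 6) in astroTIPeR, 15.5 ± 0.7 (SD, n = 2) in astroControl and 15.0 ± 1.0 (SD, n = 3) in fibroControl. The fibroblast cells held 19 to 23 such sets and the fibroControl cells 14 to 16, so these groups did not overlap. The ranges of fibroTIPeR (15 to 20) and fibroblast did, and that of cardiomyocyte (17 to 19) met the fibroblast range at 19. A cell with its Hox sets spread evenly over the array would hold 25%, and the group means ran from 31.2% in fibroControl to 43.8% in fibroblast. No test was made of these counts, which pool the members.

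The clusters differed in the share of their sets above the 75th percentile and in how much that share varied between groups. Between clusters, the share also carries the brightness of the probes. HoxC sets were above the 75th percentile in 60.6% ± 5.2 (SD, n = 3) of cases in fibroblast and 56.4% ± 11.9 (SD, n = 5) in fibroTIPeR, against 30.3% ± 5.2 (SD, n = 3) in fibroControl; cardiomyocyte stood at 47.7% ± 13.6 (SD, n = 4), astroTIPeR at 43.9% ± 6.8 (SD, n = 6) and astroControl at 40.9% ± 6.4 (SD, n = 2). The 3 fibroControl cells had 3 to 4 of the 11 HoxC sets above the 75th percentile and the 5 fibroTIPeR cells 5 to 8, without overlap. HoxA shares were lowest in astroControl, at 37.5%, and highest in fibroblast, where each cell had 8 of the 16 sets above the 75th percentile. HoxB shares ran from 27.3% ± 15.8 (SD, n = 3) in fibroControl to 39.4% ± 10.5 (SD, n = 3) in fibroblast, a difference within the spread between cells. HoxD had the lowest share in every group, from 4.0% ± 5.5 (SD, n = 5) in fibroTIPeR to 20.0% in both fibroControl (SD 17.3, n = 3) and fibroblast (SD 10.0, n = 3). By position, fibroblast cells held on average 7.0 sets of positions 1 to 4, 6.67 of positions 5 to 8 and 7.33 of positions 9 to 13 above the 75th percentile, and cardiomyocyte cells 6.0, 4.75 and 6.75, so sets from the head end and from the tail end of the clusters were read at a high level in the same cells.

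**Figure D3:**
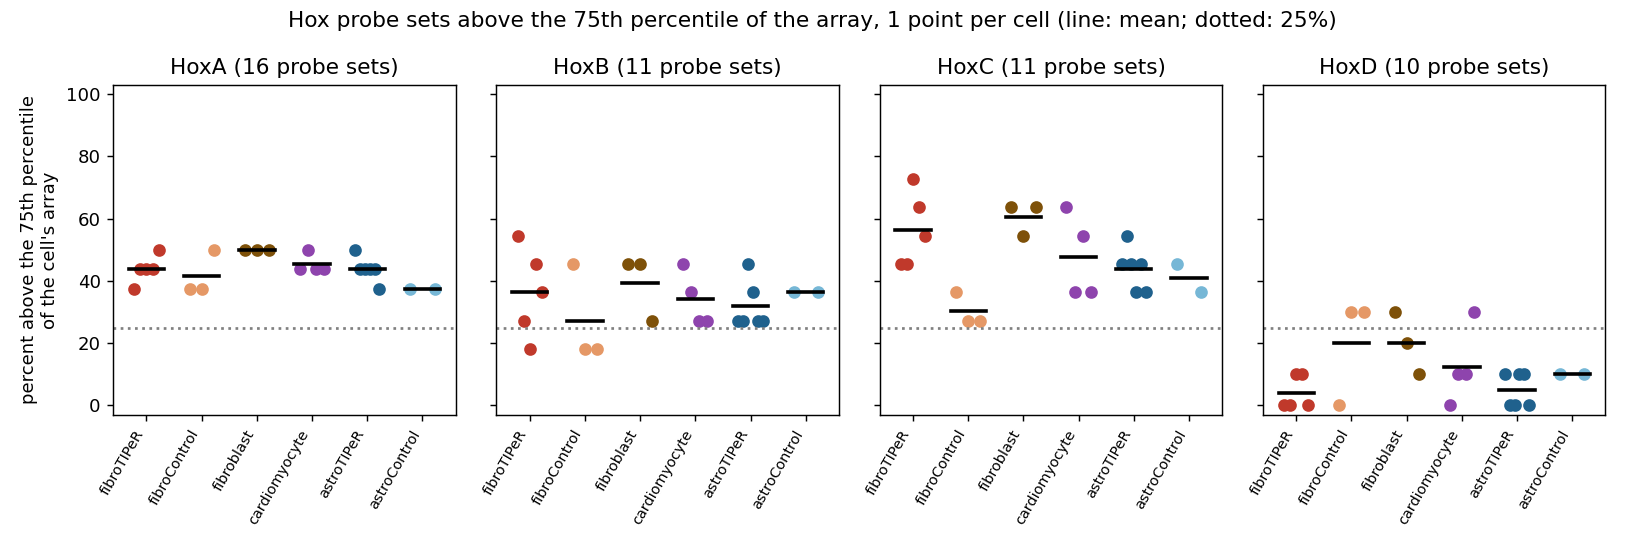
Percent of the Hox probe sets of each cluster that were above the 75th percentile of the array (y axis), 1 point per cell, by group (x axis); the line is the group mean and the dotted line the 25% of an average set. HoxC points of fibroControl lie below all those of fibroTIPeR and fibroblast, and HoxD points are near or below the dotted line in most cells.

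The comparison of untreated cardiomyocytes with untreated fibroblasts gives the difference between donor and recipient cells. Between cardiomyocyte and fibroblast, 0 of 48 Hox sets passed an adjusted p of 0.05 in limma, against 0.160% of all tested sets; 4 had an unadjusted p under 0.05, against 9.30% of all, and in 5 the groups did not overlap, against 11.3% of all. The median Hox difference, cardiomyocyte minus fibroblast, was -0.19, with 18 sets positive and 30 negative, beside 0.07 over all sets. The HoxC sets had the lowest median, -0.91.

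Hoxc8, a gene of the lower thorax and of adipose and skin fibroblasts, read 7.62, 5.98 and 8.73 in the fibroblast cells and 5.33, 3.03, 4.44 and 4.12 in the cardiomyocytes. The groups did not overlap, and the difference of -3.21 (SE 1.01) had an adjusted p of 0.281. Hoxa9 1421579_at was the other way, 10.39, 11.37 and 11.19 in fibroblasts and 11.62, 11.80, 11.52 and 11.90 in the cardiomyocytes; its difference was 0.73, with an SE of 0.31 and an adjusted p of 0.466. Fibroblast 1 was the low cell, and without it that difference was 0.43. Hoxd13 1422239_at read 8.64, 6.21 and 10.06 in fibroblasts and 5.33, 5.09, 4.63 and 6.88 in cardiomyocytes, where cardiomyocyte 4 was above fibroblast 2, and its difference of -2.82 (SE 0.80) had an adjusted p of 0.203.

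The 1 Hox probe set to pass the threshold in any comparison did so between the transfected control fibroblasts and the untreated ones. Hoxd13 1422239_at read 4.78, 3.62 and 4.31 in fibroControl, against the 6.21 to 10.06 of the fibroblasts, a difference of -4.07 (SE 0.85, 95% interval -5.81 to -2.32, adjusted p 0.0227 in limma). No fibroControl cell reached the lowest fibroblast cell. That is 1 of 48 sets, or 2.08%, beside 1.37% of all tested sets, near the background. The call was lost without fibroControl 2 (adjusted p 0.0696), fibroControl 3 (0.0516), fibroblast 1 (0.0504) or fibroblast 3 (0.0835), each of these being 1 cell, and in a fit of the compared groups alone (0.111). It was also lost with the 18S level, which separated these groups without overlap, as a covariate (adjusted p 0.350). Over all alternatives the adjusted p ran from 0.0143 to 0.350 and the difference from -5.11 to -3.19. The second Hoxd13 set, 1440626_at, went the other way in means, with 4.60, 9.56 and 9.17 in fibroControl and 7.15, 7.03 and 5.43 in fibroblast, so the 2 sets give no common direction for Hoxd13.

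Over all members of the same comparison, more sets had negative than positive differences. With limma, 12 of 48 sets had an unadjusted p under 0.05, against 16.6% of all. In fibroControl 9 of them were lower, against 8.14% of all, and 3 higher, against 8.47% of all. In 13 the groups did not overlap, against 22.7% of all, 8 of them lower (10.3% of all) and 5 higher (12.3% of all). Their median difference was -0.43, beside 0.08 over all sets, and by cluster it was -1.05 in HoxC, -0.87 in HoxA, -0.44 in HoxB and 1.08 in HoxD. The genes that follow were chosen after their values were seen. Hoxc8 read 5.12, 3.96 and 3.10 in fibroControl, all below the 3 fibroblasts, with a difference of -3.39 (SE 1.08, adjusted p 0.0979). Hoxd10 was higher, at 5.53, 9.63 and 4.21 against 3.82, 3.74 and 2.18, a difference of 3.21 (SE 0.91, adjusted p 0.0652), with fibroControl 2 far above the other cells. Hoxd9, its neighbour and a gene of limb and lumbar position, read 6.19, 6.94 and 7.99 against 5.49, 4.12 and 5.70 (difference 1.94, SE 0.89, adjusted p 0.270). Hoxc4, Hoxd3 and Hoxa7 read lower in fibroControl without overlap, with differences of -2.28, -2.23 and -1.63 and adjusted p of 0.283, 0.270 and 0.257. In these cells the 18S level moved with the group, and its part in these differences was not tested beyond the covariate fit above.

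The transfer of cardiomyocyte RNA was compared with the transfer of fibroblast RNA in fibroTIPeR and fibroControl, both of which received RNA. Their 18S levels were unlike, from 7.80 to 13.48 in fibroTIPeR and from 11.23 to 12.08 in fibroControl. With limma, 0 of 48 Hox sets passed the adjusted threshold, against 0.00286% of all tested sets, 9 had an unadjusted p under 0.05, against 6.66% of all, and in 2 the groups did not overlap, against 3.27% of all. Of the 9, 3 were higher in fibroTIPeR (Hoxb5, Hoxc6 1427454_at and Hoxc8), against 2.87% of all, and 6 lower, against 3.79% of all (Hoxa2, Hoxb7, Hoxd8 1431099_at, Hoxd9, Hoxd10 and Hoxd13 1440626_at). Over the members the median difference was 0.07, beside -0.01 over all sets, with 0.53 in HoxC, 0.31 in HoxB, -0.11 in HoxA and -0.78 in HoxD.

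The largest of these differences, named after its value was seen, was that of Hoxc6 1427454_at, a set for the same gene as the evenly bright ones. It read 11.97, 4.49, 11.94, 9.58 and 9.18 in fibroTIPeR and 5.99, 5.49 and 5.21 in fibroControl, a difference of 3.86 (SE 1.40, adjusted p 0.569). In the untreated fibroblasts it read 5.25, 5.49 and 12.84, and in cardiomyocytes, the source of the transferred RNA, 6.50, 3.91, 4.49 and 3.50. In the astrocytes it stayed between 4.04 and 6.16 in astroTIPeR, with a median of 5.09, and read 5.66 and 4.22 in astroControl. The values fell in separate ranges, with 5 cells at 9.18 or above and 18 cells at 6.50 or below; the 5 were 4 fibroTIPeR cells and 1 untreated fibroblast. Against the cardiomyocytes the fibroTIPeR cells were higher by 4.83 (SE 1.29, adjusted p 0.0826), and without fibroTIPeR 2, the low cell, that difference passed the threshold with an adjusted p of 0.00893; over all alternatives the adjusted p ran from 0.00893 to 1.0, the highest with the 18S level as a covariate.

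Hoxc8 and Hoxb5 were the other 2 sets higher in fibroTIPeR. Hoxc8 read 5.21, 8.79, 8.91, 4.81 and 6.49 there, overlapping the 3.10 to 5.12 of fibroControl, with a difference of 2.79 (SE 0.96, adjusted p 0.528); over all cells it was at 7.62 or above in fibroTIPeR 2 and 3, fibroblast 1 and 3 and astroTIPeR 2. Hoxb5, a gene of neck, shoulder and gut, read 7.25, 8.81, 3.76, 3.72 and 4.26 against 3.68, 2.11 and 3.42, without overlap but with 2 high cells; the difference was 2.49 (SE 0.84, adjusted p 0.528), and no other cell of the study exceeded 4.97. Hoxd10 was lower in fibroTIPeR, at 4.40, 5.15, 2.84, 4.01 and 3.54, where fibroControl 2 stood alone at 9.63 (difference -2.47, SE 0.81, adjusted p 0.528); without that cell the difference was -0.88. Hoxb7, a trunk gene, read 4.40, 5.06, 5.74, 5.10 and 3.54 against 7.39, 5.80 and 6.09, without overlap (difference -1.66, SE 0.60, adjusted p 0.569). The high Hoxb5 cells, fibroTIPeR 1 and 2, are among the 3 with high 18S levels, and the high Hoxc6 1427454_at cells lie on both sides of that divide; the part of 18S in these values was not tested.

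**Figure D4:**
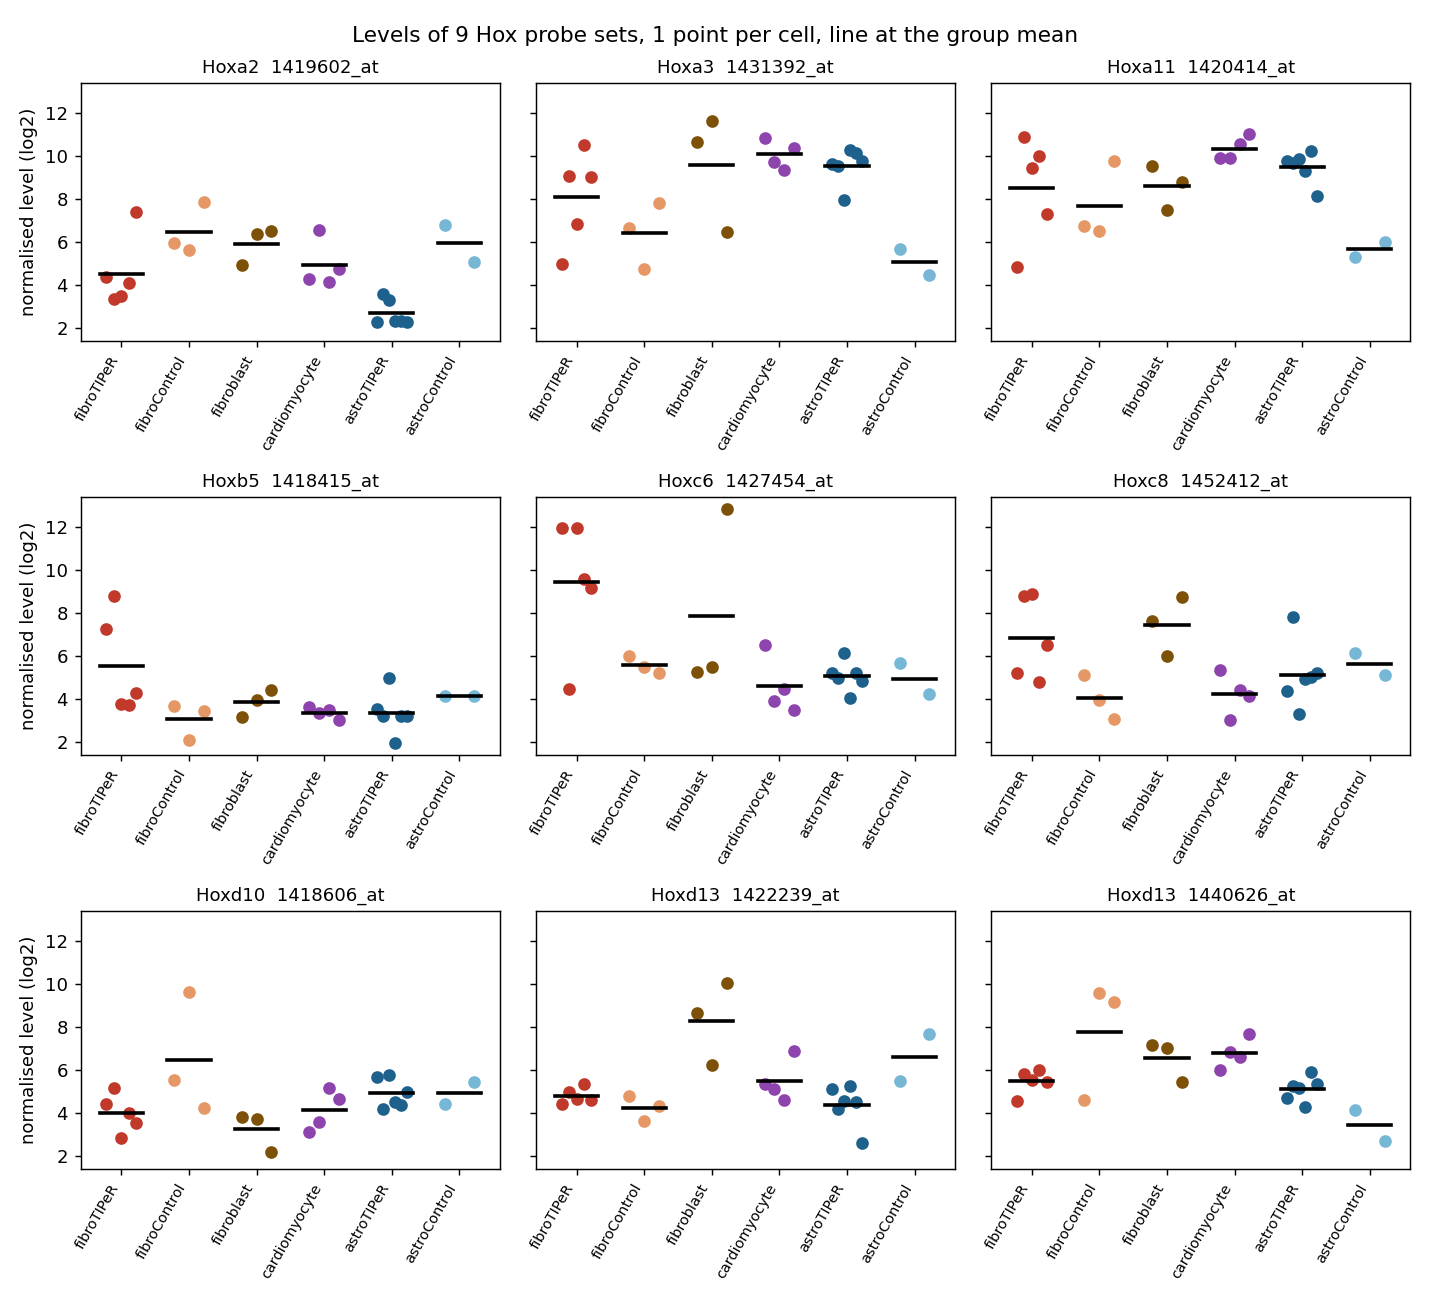
Normalised log2 level (y axis) of the 9 Hox probe sets with the smallest p in any comparison, in every cell by group (x axis); points are cells and lines group means. Hoxc6 1427454_at is high in 4 of 5 fibroTIPeR cells and 1 fibroblast, Hoxd13 1422239_at is highest in the fibroblasts, and Hoxa3 1431392_at is low in both astroControl cells.

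Set against the untreated fibroblasts, fibroTIPeR and fibroControl cells each had more negative than positive Hox differences. The 2 comparisons use the same fibroblast cells and so are not independent. With limma, 0 of 48 sets passed, against 0.0286% of all, 4 had an unadjusted p under 0.05, against 10.4% of all, and in 5 the groups did not overlap, against 5.39% of all. The median Hox difference, fibroTIPeR minus fibroblast, was -0.45, with 14 sets positive and 34 negative, beside 0.06 over all sets; fibroControl minus fibroblast had 17 positive and 31 negative. Hoxd13 1422239_at read 4.40, 4.97, 4.65, 5.34 and 4.61 in fibroTIPeR, below all 3 fibroblasts, with a difference of -3.51 (SE 0.76, adjusted p 0.0955); it passed the threshold without fibroTIPeR 5 (adjusted p 0.0484), without fibroblast 2 (0.0290) and with fibroTIPeR 1 to 3 alone (0.0261), and over all alternatives the adjusted p ran from 0.0261 to 0.999. Hoxa3 1429398_at read 4.03, 3.83, 4.12, 5.10 and 4.38 against 7.39, 6.01 and 5.43 (difference -1.98, SE 0.86, adjusted p 0.417). Hoxa13, like Hoxd13 a gene of the digits, had a difference of -1.16 (SE 0.56, adjusted p 0.478).

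Set against the cells whose RNA they had received, fibroTIPeR cells differed in 0 of 48 Hox sets at the adjusted threshold in limma, against 0.630% of all; 7 had an unadjusted p under 0.05, against 13.2% of all, and in 4 the groups did not overlap, against 3.79% of all. Hoxc8 was higher by 2.61 (SE 0.88, adjusted p 0.197) and Hoxb5 by 2.19 (SE 0.77, adjusted p 0.217), or by 1.38 without fibroTIPeR 2. The median Hox difference was -0.20, beside -0.06 over all sets. With fibroTIPeR 1 to 3 alone, the cells with high 18S levels and a choice made after seeing the data, 3 Hox sets passed in this comparison, those of Hoxb2, Hoxb5 and Hoxc8. The share of all tested sets that passed with these cells is not given here.

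In astrocytes the transfer was compared with a mock transfection of 2 cells. With limma, 0 of 48 Hox sets passed, against 0.0744% of all tested sets; 5 had an unadjusted p under 0.05, against 9.62% of all, and in 8 the groups did not overlap, against 11.2% of all. The median Hox difference was -0.09, with 22 sets positive and 26 negative, beside 0.04 over all sets.

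The 3 sets with the smallest p all belonged to HoxA. Hoxa3 1431392_at read 7.96 to 10.28 in astroTIPeR, with a median of 9.72, and 5.66 and 4.49 in astroControl; the difference was 4.49 (SE 1.20, adjusted p 0.135). In cardiomyocytes it read 10.86, 9.75, 9.37 and 10.38, and in fibroblasts 10.67, 11.66 and 6.47, so both mock-transfected astrocytes were below all cells of those groups. They overlapped fibroControl, at 6.68, 4.78 and 7.80, and fibroTIPeR 1, at 4.98. Hoxa11 was also higher in every astroTIPeR cell, with 8.15 to 10.24 and a median of 9.73 in astroTIPeR, 5.32 and 6.03 in astroControl and 9.91, 9.90, 10.57 and 11.03 in cardiomyocytes; its difference was 3.83 (SE 1.11, adjusted p 0.173). Hoxa2 had the opposite order, with 6.82 and 5.10 in astroControl and 2.28 to 3.61 in astroTIPeR, with a median of 2.33; the difference was -3.27 (SE 0.86, adjusted p 0.131). None of the 3 groups of values overlapped between astroTIPeR and astroControl. In the fibroblast transfer, Hoxa2 had a difference of -1.95 (SE 0.77, adjusted p 0.618), with fibroTIPeR 5 at 7.39 above 2 of the 3 controls.

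The other sets of Hoxa3 did not repeat the pattern of 1431392_at. The bright set 1427433_s_at overlapped between astroTIPeR, at 11.24 to 12.20, and astroControl, at 12.12 and 11.69. In astroTIPeR against cardiomyocyte, a comparison across the 2 array sets, 0 of 48 Hox sets passed in limma, against 1.78% of all; 5 had an unadjusted p under 0.05, against 15.8% of all, and in 3 the groups did not overlap, against 6.76% of all. The difference of Hoxa2 was -2.24 (SE 0.68, adjusted p 0.0874), that of Hoxb13, a gene of the tail end and of the prostate, -2.26 (SE 0.86, adjusted p 0.187) and that of Hoxc13, a hair follicle gene, -1.36 (SE 0.54, adjusted p 0.209). This count depends on the scaling: 11 Hox sets passed on the values as deposited, 6 with median centring and 9 with each array set normalised by itself. The share of all tested sets that passed under these scalings is not given here, so these counts are no result about Hox genes.

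The recipient cell types, neither given RNA, were compared in fibroblast and astroControl. The fibroblast cells had no transfection and the astroControl cells were mock-transfected, so cell type, treatment and array set cannot be told apart here. With limma, 0 of 48 sets passed, against 1.86% of all, 8 had an unadjusted p under 0.05, against 17.1% of all, and in 12 the groups did not overlap, against 32.9% of all. The median Hox difference, fibroblast minus astroControl, was 0.41, with 28 sets positive and 20 negative, beside -0.05 over all sets. Hoxa3 1431392_at was higher in fibroblast by 4.52 (SE 1.35, adjusted p 0.0733), Hoxd13 1440626_at by 3.10 (SE 1.05, adjusted p 0.116) and Hoxc5 1439885_at by 2.25 (SE 0.81, adjusted p 0.138). Here too the count depended on the scaling, with 6 sets past the threshold on the values as deposited, 6 with median centring and 7 with each array set normalised by itself. These counts also stand without the share of all tested sets and are no result about Hox genes.

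The transfer effect in fibroblasts less that in astrocytes, the interaction of the design, had 0 of 48 Hox sets past the threshold in limma, beside 0% of all tested sets, and 7 with an unadjusted p under 0.05, against 7.96% of all. Hoxd13 1440626_at had the smallest p, with a difference of effects of -3.98 (SE 1.26, adjusted p 0.420), followed by Hoxb7 (-2.52, SE 0.90, adjusted p 0.475) and Hoxb5 (3.30, SE 1.25, adjusted p 0.50). The controls of the 2 arms were unlike, fibroblast RNA in one and a mock transfection in the other.

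**Figure D5:**
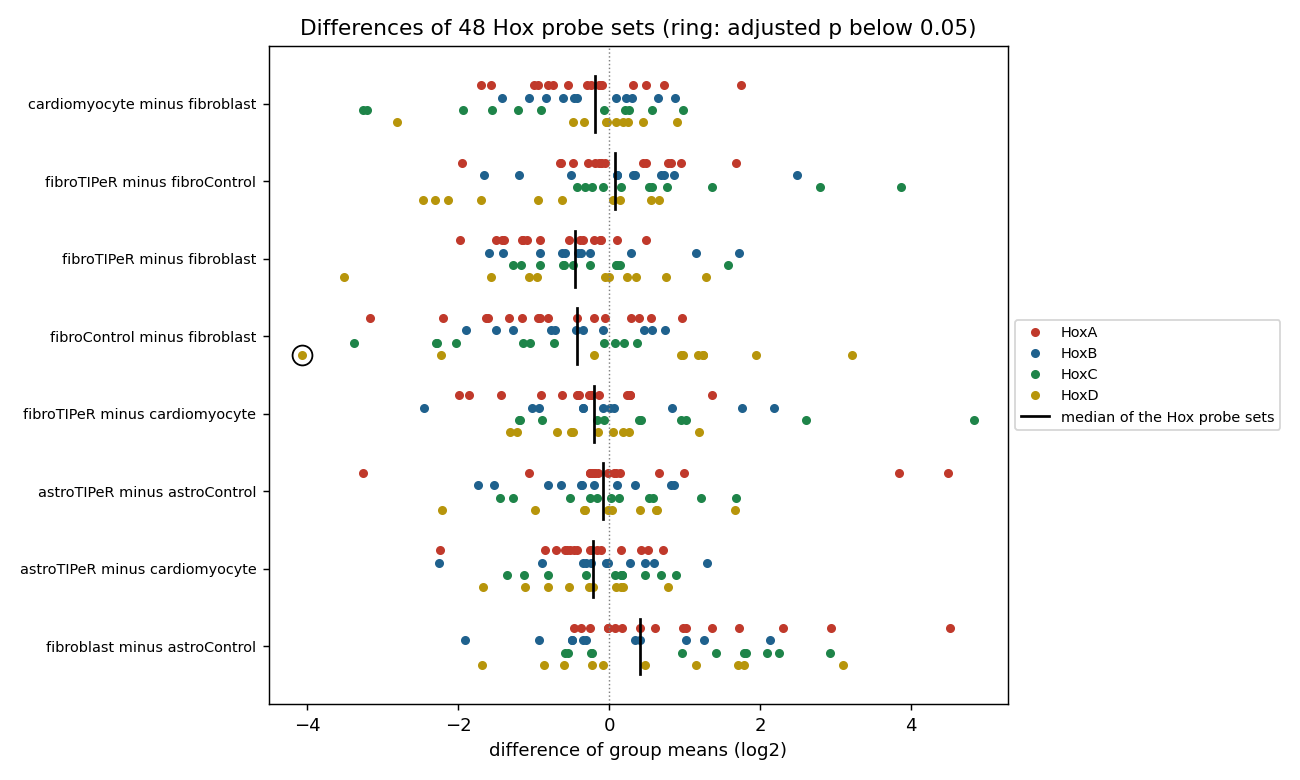
Difference of group means (x axis, log2) for each of the 48 Hox probe sets in 8 comparisons (y axis), coloured by cluster; the bar is the median of the Hox sets and the ring marks the 1 set with an adjusted p below 0.05, Hoxd13 1422239_at in fibroControl minus fibroblast. The medians lie between -0.45 and 0.41.

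Several Hox sets were bright in a single cell; they were chosen after the values were seen, by the gap between neighbouring cells. Hoxd10 stood at 9.63 in fibroControl 2 and at 5.78 or below in the other 22 cells. Hoxd8 1431099_at stood at 9.29 in fibroControl 3 and at 5.46 or below elsewhere, and Hoxa9 1455626_at at 9.23 in fibroblast 3 and at 6.21 or below elsewhere. Hoxb6 stood at 8.02 in astroControl 2, Hoxa5 1448926_at at 9.70 in fibroTIPeR 1 and Hoxa3 1429398_at at 9.12 in cardiomyocyte 2, with the next cells at 5.84, 7.83 and 7.39. For each of these 6 sets the widest gap in the ordered values of the 23 cells was between the brightest cell and the rest. That follows from how they were chosen. The share of all tested sets with a single bright cell was not computed, so these cells are no result about Hox genes.

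Cells of a group were little more alike in their Hox levels than cells of different groups. After each set was centred on its mean, the correlation of 2 cells over the 48 Hox sets averaged 0.21 within cardiomyocyte (6 pairs), 0.19 within astroTIPeR (15 pairs), 0.11 within fibroControl (3 pairs), 0.07 within fibroTIPeR (10 pairs) and 0.06 within fibroblast (3 pairs). Between groups it ran from -0.18, for cardiomyocyte with astroControl, to 0.11, for cardiomyocyte with astroTIPeR. Over all 34945 sets the within-group means were 0.24, 0.16, 0.15, -0.05 and 0.25 in the same order. The cells share array sets, and the values are descriptions of these 23 arrays.

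Few of the partners and regulators of Hox genes passed the threshold, 1 gene each in 3 lists. Among 10 measured TALE homeodomain genes, the Pbx and Meis cofactors that bind DNA together with Hox proteins, none passed in any of the 9 comparisons except Meis3, higher in astroTIPeR than in cardiomyocyte by 2.63 (SE 0.64, adjusted p 0.0282), a comparison across array sets in which 1.78% of all tested sets passed. Among 23 Polycomb genes, which keep Hox clusters silent, Phc3 was the 1 to pass, higher in fibroControl than in fibroblast by 3.93 (SE 0.86, adjusted p 0.0246), with means of 8.99 and 5.06, in a comparison in which 1.37% of all sets passed. Among 12 genes of the Trithorax group and of H3K27 demethylation, which keep them active, Kdm6a, the H3K27 demethylase UTX, was higher in the same comparison by 2.72 (SE 0.69, adjusted p 0.0472). The 18S level separated these groups too, at 11.62 and 7.45, and its part in both calls was not tested. None of the 6 Cdx and ParaHox genes, the 17 genes of retinoic acid and other axial signals or the 13 heart field genes passed in any of the 9 comparisons in limma; at an unadjusted p under 0.05 these lists had at most 2, 3 and 4 genes in a comparison, the 2 in fibroblast minus astroControl, where 17.1% of all sets had such a p, and the 3 and 4 in astroTIPeR minus cardiomyocyte, where 15.8% had.

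Genes of other positions gave 2 calls, in comparisons in which 1.37% and 1.86% of all tested sets passed. Otx2, a forebrain and midbrain gene from the Hox-free end of the axis, read lower in fibroControl than in fibroblast, with means of 2.71 ± 0.83 (SD, n = 3) and 6.20 ± 1.27 (SD, n = 3), a difference of -3.50 (SE 0.86, adjusted p 0.0419); this is again the comparison that the 18S level separates. En1, a gene of the midbrain border and of dorsal dermis, was higher in fibroblast than in astroControl, with means of 5.34 ± 0.49 (SD, n = 3) and 2.15 ± 0.56 (SD, n = 2), by 3.19 (SE 0.80, adjusted p 0.0380), again across array sets and unlike treatments. In fibroControl minus fibroblast the median difference was -0.26 over the 11 forebrain and midbrain genes, -0.43 over the 17 genes of limb, skin and body wall and -0.84 over the TALE cofactors, beside 0.08 over all tested sets.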

How the data were processed

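The deposited table holds 1 column of log2 expression values per cell, judged from their range; for the authors' summarising and normalising of them, the method was not given in the sources used here. Scale and centring of the 2 array sets stay unknown. Of its 45101 probe sets, 64 controls, 932 with several symbols and 9160 not listed in the platform annotation were left out, which left 34945 probe sets of 18193 genes; the gene IDs of 34741 sets matched the gene table and no symbol changed. All 23 columns were mapped to samples by the labels. The columns were quantile normalised together, with no filter on low values and no detection call. No background level is known. The precision is limited by the number of arrays.

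Differences were fitted with limma 3.58.1 (statmod 1.5.0, R 4.3.3), as 6 group means fitted to all 23 cells with a variance trend, two-sided, and p-values were adjusted by Benjamini-Hochberg over all 34945 sets with a threshold of 0.05. The script was tested on simulated data. Summaries used Python 3.11.15. The members and all gene lists were chosen with earlier results of these data known. Probe sets were named by rule: the 8 Hox genes with the highest mean, in each comparison up to 8 members per direction past the threshold or else the 3 with the smallest p, in each group the 3 Hox genes of highest rank, and of each other list up to 4 members past the threshold; other lists used the probe set with the highest mean per gene. The 3 top-ranked Hox genes of every group came from Hoxc6, Hoxa5, Hoxa3 and Hoxa9. Alternatives covered the scaling, the probe sets used, the variance model, the samples fitted, the 18S level, the replicate number and each cell left out. Promoters are RefSeq's.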

Additional observations from a re-analysis of the deposited data

Results flagged for a closer look

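In 69 groups of 4 to 6 cells (the 22 named Hox sets and the count above the 75th percentile), 5 had 1 cell apart from the others by Dixon's test, where chance gives about 1 in 20 for continuous values. They were Hoxa2 in fibroTIPeR 5 at 7.39, Hoxa3 1431392_at in astroTIPeR 3 at 7.96, Hoxa5 1443803_x_at in astroTIPeR 5 at 12.20, and the number of Hox sets above the 75th percentile of the array, which was 19 in cardiomyocyte 1 and 13 in astroTIPeR 6. That rate need not hold for this number, a whole number with ties: the other cardiomyocyte cells all held 17.

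For 3 of the 22 named Hox sets the transfer effect had opposite signs in the cell types. Every fibroTIPeR cell was on one side of the fibroControl mean and every astroTIPeR cell on the other side of the astroControl mean. The difference of effects, fibroblasts minus astrocytes, was 2.78 for Hoxd13 1422239_at (adjusted p 0.549 in limma), -3.98 for Hoxd13 1440626_at (adjusted p 0.420) and -2.52 for Hoxb7 (adjusted p 0.475). None of the 3 passed the test of the difference. Hoxd13 1440626_at and Hoxb7 had been named for a small p of this same difference. The share of all tested sets that meet the rule was not computed. A side of the mean is not a lack of overlap: for Hoxd13 1440626_at, fibroControl 1 at 4.60 was below fibroTIPeR 2 to 5, at 5.46 to 5.99.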

How the results depend on the processing

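The count of Hox sets past the threshold was sensitive to single cells and, across array sets, to scaling. In fibroControl minus fibroblast it was 1 and became 0 with 1 probe set per gene, 0 in a fit of the compared groups alone and 0 with the 18S level as a covariate. Leaving out each cell gave 0 to 1. The 1 was Hoxd13 1422239_at without fibroControl 1 or fibroblast 2, and Hoxd10 in its place without fibroControl 3. In fibroTIPeR minus fibroControl (0 in the main analysis) leaving out each cell gave 0 to 1, the 1 being Hoxd13 1440626_at without fibroControl 1. In fibroTIPeR minus fibroblast (0) it gave 0 to 1, and fibroTIPeR 1 to 3 alone gave 1. In fibroTIPeR minus cardiomyocyte (0) it gave 0 to 1, and fibroTIPeR 1 to 3 alone gave 3. In astroTIPeR minus astroControl (0) it gave 0 to 1, where Hoxb6 passed without astroControl 1, and median centring and normalisation within each array set gave 1 each, for Hoxa3 1431392_at. In fibroblast minus astroControl (0) leaving out each cell gave 0 to 1, the values as deposited gave 6, median centring 6 and normalisation within each array set 7. In astroTIPeR minus cardiomyocyte (0) these gave 11, 6 and 9, and a fit of the compared groups alone gave 1. For the difference of transfer effects (0), leaving out each cell gave 0 to 1. The count stayed at 0 under all 18 alternatives in cardiomyocyte minus fibroblast. The share of all tested sets under these alternatives is not given beside the counts, so they are no result about Hox genes. The cause of these changes was not tested.

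The named differences kept their direction under all 502 combinations of 25 differences and their alternatives: 472 stayed on their side of the threshold, 24 passed it and 6 lost it, all 6 of Hoxd13 1422239_at in fibroControl minus fibroblast. Counting Hox sets above the array median in place of the 75th percentile gave 54.2% for astroTIPeR, 55.2% for astroControl, 56.8% for cardiomyocyte, 60.8% for fibroTIPeR, 61.1% for fibroControl and 69.4% for fibroblast. Above the 90th percentile the values were 20.1%, 18.8%, 20.8%, 17.5%, 16.7% and 21.5%. With 1 probe set per gene the share above the 75th percentile was 41.4% for astroTIPeR, 39.4% for astroControl, 43.9% for cardiomyocyte, 42.4% for fibroTIPeR, 38.4% for fibroControl and 46.5% for fibroblast. Without sets of suffix s, x or a it was 31.3%, 29.3%, 35.4%, 35.6%, 29.3% and 43.9% in the same order, so fibroblast had the highest mean share under these alternatives.

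The labels do not say that the replicate numbers of the titles pair the cells. Over the 44 same-numbered pairs of cells from different groups the correlation of deviations had a median of 0.005, and 7 exceeded 0.1. Over the pairs with other numbers the median was -0.007. These values do not settle whether the numbers pair cells in a single comparison. With the number as a replicate block the count of Hox sets was 1 in fibroControl minus fibroblast and 0 in the other 8 comparisons, as without it, while the count over all sets in that comparison went from 479 to 238. fibroTIPeR 1 to 3 and 4 to 5 were separated after seeing the data. With 2 to 6 cells a group, and probe sets of 1 gene that do not follow each other, small Hox differences could not be resolved.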
